A study of Mus musculus with 6 samples.

Results

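The integrin chains described here are those listed as receptors of tenascin-C, read in tumours grown in mice with and without that protein. They are encoded by 9 genes, Itga2, Itga7, Itga8, Itga9, Itgav, Itgb1, Itgb3, Itgb6 and Itgb8, and were chosen by name among the 18193 genes that the array measures. Every probe set of the array annotated to exactly 1 of these genes was taken, which gave 23 of 45037 tested probe sets. All 9 genes had at least 1 probe set, and no filter on low values was applied.

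The samples were 6 tumours grown from GLMT1 cells, a single line named after a lung metastasis of the GRS/A mouse strain. The cells were placed under the back skin of male GRS/A hosts with intact tenascin-C (WT, 3 tumours) or of tenascin-C-deficient GRS/A-TgH(TnC) hosts (TNKO, 3 tumours). Each mouse received 100 microlitres of cells, was 8 weeks of age at the start and has an age of 10 weeks in the sample labels. The tumours are labelled as biological replicates, with 3 mice per group, and the labels name no treatment of the hosts. The labels describe loss of tenascin-C in the host and not in the injected cells, so tumour cells of both groups may carry the gene.

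The array medians were 6.57 in all 6 arrays. Between arrays the values as deposited hardly moved, with a median span of 5.46 millionths of a log2 unit over the 6 tumours. Differences are therefore given in millionths of a deposited log2 unit and in residual SDs, which measure a probe set's spread among tumours of the same host genotype, and none can be read as a fold change. The number of arrays limits the precision. Of 10 markers of simple epithelia 6 lay above the median level of all probe sets (6.57). They were Krt8 at 11.45 (98.9th percentile), Krt7 at 9.17, Krt18 at 8.92, Cdh1 at 7.48, Epcam at 7.04 and Cldn3 at 6.65. Elf3 (6.44), Cldn4 (6.18), Krt19 (6.07, 25.3rd percentile) and Esrp1 (5.84, 12.7th percentile) lay below it. Tnc, the gene of the missing ligand, stood at 9.014, 9.043 and 8.995 in WT tumours 1 to 3 and at 8.797, 8.822 and 8.832 in TNKO tumours (adjusted p = 0.0537 by limma). These values are from the brightest of 2 Tnc probe sets, and those of the other are not given here. By this probe set the ligand's RNA signal was below every WT tumour in each TNKO tumour. It did not pass the adjusted threshold of 0.05.

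Integrins are cell surface receptors made of an alpha and a beta chain, which hold cells to the extracellular matrix and pass signals to the cytoskeleton. The Itgb1 chain pairs with those of Itga2, Itga7, Itga8 and Itga9. The Itgav chain pairs with those of Itgb1, Itgb3, Itgb6 and Itgb8. Receptors with the Itgav chain and that of Itga8 recognise short RGD motifs, of which tenascin-C carries an example, while the Itga9 chain binds tenascin-C at another site. Receptors formed with Itgb6 or Itgb8 also release active TGF-beta from its latent complex.

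The chains shared by most of these receptors were the brightest. The brightest Itgav probe set (1452784_at) stood at 11.89, above 99.2% of all probe sets, and that of Itgb1 (1452545_a_at) at 11.30 (98.7th percentile). Itgb8 followed at 9.54 (93.2nd percentile), Itgb3 at 8.58 (85.9th), Itga7 at 7.66 (74.5th) and Itga9 at 7.22 (67.1st). Itga2, a chain of a collagen receptor of epithelia and platelets, stood at 6.52 (48th percentile). Itga8, a chain of mesenchymal cells, stood at 6.17 (30.9th percentile). Itgb6, a chain largely restricted to epithelial cells, was the dimmest at 6.09 (26.4th percentile). The median level of all probe sets was 6.57, so 6 of the 9 genes lay above it. A probe set's level also depends on its probes, so this order places genes on the array's range and does not rank transcript amounts.

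**Figure D1:**
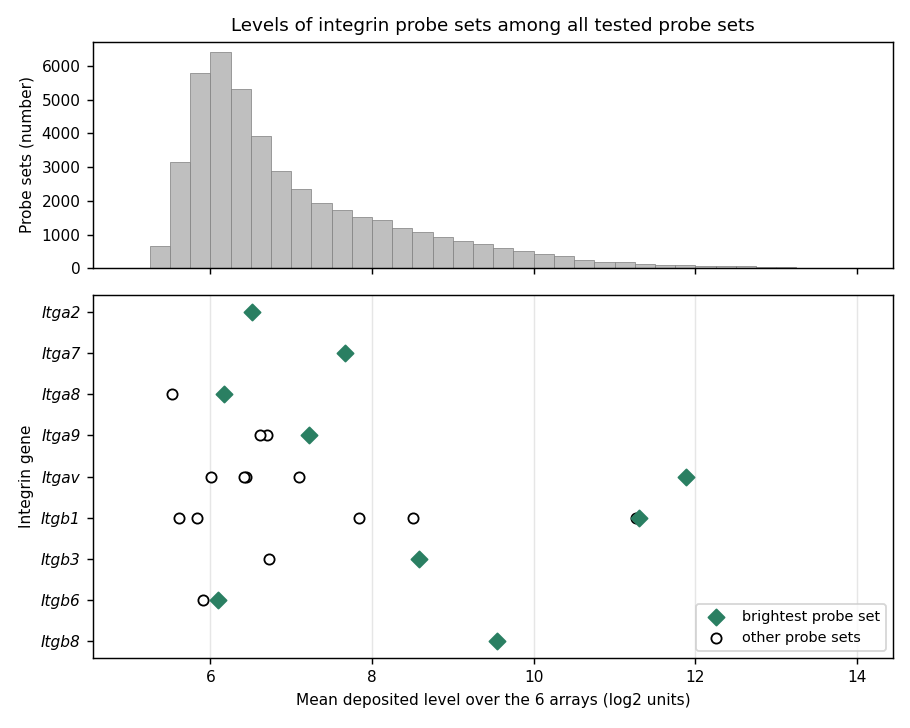
The upper panel plots the number of tested probe sets by mean deposited level over the 6 arrays, in log2 units, and the lower panel the 23 integrin probe sets by gene, diamonds for the brightest of each gene and circles for the others. The brightest probe sets of Itgav (11.89) and Itgb1 (11.30) lie at the bright end, and those of Itga2, Itga8 and Itgb6 lie below the median level of 6.57.

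Probe sets of the same gene lay far apart in level. Those of Itgb1 were at 11.30, 11.27, 8.51, 7.84, 5.83 and 5.61, and those of Itgav at 11.89, 7.10, 6.44, 6.41 and 6.01. The second probe sets of Itgb3 (6.72), Itga8 (5.53) and Itgb6 (5.91) were also dimmer, and the 3 of Itga9 lay at 7.22, 6.70 and 6.62. Itga2, Itga7 and Itgb8 were each read by 1 probe set. Those of Itgb1 at 8.51 and 7.84 have names ending in x_at, which on these arrays marks probes that may also match other transcripts. The transcript part that each probe set reads was not used here.

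Itgb8 varied more between tumours than any other member. Its values spanned 2417 millionths over the 6 arrays, more than 98.9% of all probe sets did. It was the 1 member probe set of 23 that spanned at least 0.001 log2 units, as 1.75% of all probe sets did. The other members spanned from 1.27 millionths, in the dimmer Itga8 probe set, to 90.3 millionths in the second Itgav probe set, and Itga7 spanned 75.2 millionths. Of the 23 probe sets 10 spanned less than the median probe set of the array.

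**Figure D2:**
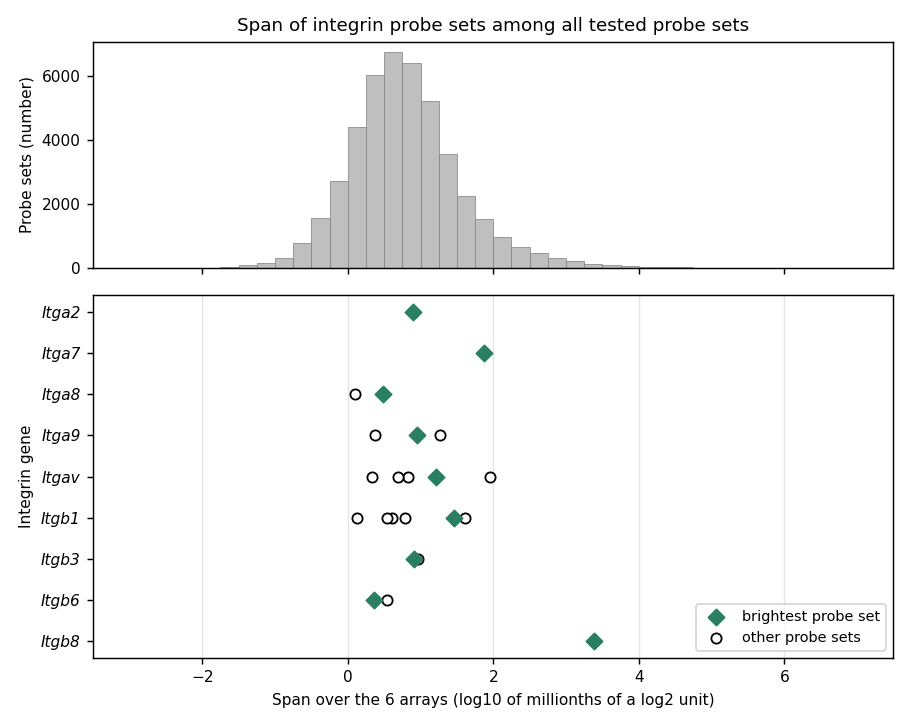
The upper panel plots the number of tested probe sets by span, the highest minus the lowest of the 6 arrays, as log10 of millionths of a log2 unit, and the lower panel the 23 integrin probe sets by gene, diamonds for the brightest of each gene. Itgb8, at 2417 millionths, stands apart from the other integrin probe sets, which reach 90.3 millionths.

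The comparison of hosts addresses whether tumours in mice without tenascin-C carried other amounts of RNA for its receptors. None of the 23 integrin probe sets passed the adjusted threshold of 0.05 by limma, where 0.175% of all probe sets did. At an unadjusted p under 0.05 there were 3 of the 23 (13%), against 20.3% of all probe sets. The groups did not overlap in 7 of the 23 (30.4%), 3 higher and 4 lower in TNKO hosts, against 28% of all probe sets, 14.2% higher and 13.8% lower. These shares were near or below the background of the array. The group means were lower in TNKO hosts in 16 of the 23 integrin probe sets, against 45.6% of all, and the median difference was -0.981 millionths (-0.65 residual SDs), against 0.0997 millionths (0.17 residual SDs) over all probe sets. Without TNKO tumour 3 the groups did not overlap in 12 of the 23, against 40.9% of all probe sets, and 5 had an unadjusted p under 0.05, against 18.7%. These directions hold for the values as deposited. With quantile normalization or array medians subtracted, all 23 were lower in TNKO hosts, as the median difference of all probe sets moved to -538 and -764 millionths.

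Among the alpha chains that pair with Itgb1, Itga2 had values of 0.208, -1.51 and 1.3 millionths from the WT mean in WT tumours 1, 2 and 3, and -4.11, -6.65 and -1.83 in TNKO tumours 1, 2 and 3. All 3 TNKO tumours lay below all WT tumours, with WT tumour 2 and TNKO tumour 3 close together. The difference was -4.2 millionths (SE 1.52, -2.12 residual SDs, n = 3 per group, adjusted p = 0.233 by limma) and did not pass.

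Itga8, an RGD-binding chain whose known ligands outside the tenascins include nephronectin, lay on the other side. Its brightest probe set (1454966_at) had -0.432, 0.484 and -0.052 millionths from the WT mean in WT tumours and 1.33, 2.23 and 2.62 in TNKO tumours. The groups did not overlap, and the difference of 2.06 millionths (SE 0.482, 3.61 residual SDs, adjusted p = 0.135 by limma) did not pass. The dimmer probe set, at the 2.05th percentile of the array, differed by -0.212 millionths with overlapping groups. Smooth muscle and pericyte markers, whose cells also carry Itga8, differed by a median of 0.976 millionths. Of these 10 markers 7 were higher, against 57.6% of all genes, and 3 were lower. They ran from -13.1 millionths in Pdgfrb to 2874 in Rgs5. Their mean level rounded to 8.57 in every tumour, which is too coarse to show differences of millionths. Their part in the Itga8 values was not tested.

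Itga9, a receptor chain of tenascin-C and of the adhesion molecule encoded by Vcam1, was lower in the TNKO mean in each of its 3 probe sets. The brightest (1460285_at) had 2.53, -3.82 and 1.28 millionths from the WT mean in WT tumours and -6.48, -4.35 and -3.54 in TNKO tumours. WT tumour 2 lay among the TNKO tumours, so the groups overlapped. The differences of the 3 probe sets were -4.79 (SE 2), -7.82 (SE 4.7) and -0.981 (SE 0.6) millionths, with adjusted p from 0.281 to 0.433 by limma.

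Itga7 is the main alpha chain of the laminin receptor on skeletal muscle fibres. It had -20.2, -0.651 and 20.9 millionths from the WT mean in WT tumours and 55, 4.98 and 37.4 in TNKO tumours. TNKO tumours 1 and 3 were above all WT tumours, and TNKO tumour 2 lay within the WT range. The difference of 32.4 millionths (SE 17.6, 1.41 residual SDs, adjusted p = 0.383 by limma) did not pass. All 12 skeletal muscle markers were lower in the TNKO mean, against 42.4% of all genes. None of the 12 had an unadjusted p under 0.05 by limma. Their mean level was 6.88, 6.97 and 6.84 in WT tumours and 6.45, 6.51 and 6.94 in TNKO tumours. TNKO tumour 1 was the highest array for Itga7 and the lowest in 11 of the 12 muscle genes. TNKO tumour 3 was the next highest for Itga7, and its muscle mean of 6.94 lay within the WT range. The part of muscle cells in the Itga7 values was not tested.

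Itgb1, the beta chain common to most receptors of the group, was read by 6 probe sets, 3 higher and 3 lower in the TNKO mean. The brightest had -5.95, 0.0667 and 5.89 millionths from the WT mean in WT tumours and -14, -22.5 and -1.91 in TNKO tumours. TNKO tumours 1 and 2 were below all WT tumours, and TNKO tumour 3 lay among them. The difference was -12.8 millionths (SE 6.44, -1.52 residual SDs, adjusted p = 0.352 by limma). The second probe set (1426918_at), nearly as bright at 11.27, differed by -0.507 millionths (SE 2.33), and the groups overlapped. The only Itgb1 probe set without overlap was the dimmest (1438119_at), where the TNKO tumours were higher and the difference was 0.595 millionths (adjusted p = 0.4 by limma).

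Of the 5 Itgav probe sets 4 were lower and 1 was higher in the TNKO mean. The brightest had -6.66, 4.98 and 1.69 millionths from the WT mean in WT tumours and -6.33, -4.15 and 9.71 in TNKO tumours, with TNKO tumour 3 at the top and WT tumour 1 at the bottom. The difference was -0.26 millionths (SE 5.71, adjusted p = 0.99 by limma), with a 95% interval from -17.2 to 16.7 millionths. Its sign turned without WT tumour 2 or 3 and without TNKO tumour 1 or 2. The next probe set (1421198_at) differed by -38.6 millionths (SE 21.5) with overlapping groups. The next by level, 1432296_a_at and 1432678_at, had every TNKO tumour below every WT tumour, with differences of -3.07 and -1.85 millionths. The dimmest differed by 1.21 millionths. None passed.

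With Itgav its partner in this group, Itgb3 encodes a chain of receptors of platelets, osteoclasts and endothelial cells. Its brightest probe set (1455257_at) had -2.01, -1.96 and 3.98 millionths from the WT mean in WT tumours and -2.04, -2.7 and -4.24 in TNKO tumours. WT tumour 3 alone was high, and the groups were apart only because TNKO tumour 1 lay just below WT tumours 1 and 2. The difference was -2.99 millionths (SE 1.97, adjusted p = 0.463 by limma), and the dimmer probe set differed by -2.44 millionths (SE 2.89). Endothelial markers were higher in the TNKO mean in 10 of 10, with a median of 60.4 millionths. Of these 1 had an unadjusted p under 0.05 by limma. Among all genes 57.6% were higher. Marker directions, here and beside other members, are those of the values as deposited. Of 6 megakaryocyte and platelet markers 4 were higher, Pf4 among them (1298 millionths, adjusted p = 0.176 by limma), while Ppbp, Itga2b and Gp9 differed by less than 1 millionth. The part of either cell type in the Itgb3 values was not tested. In tumour RNA, fewer cells of a type and less RNA per cell cannot be told apart.

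Itgb6 had the most separated groups of the family relative to its spread. Its brighter probe set (1432281_a_at) had -0.386, 0.145 and 0.24 millionths from the WT mean in WT tumours and 1.91, 1.53 and 1.7 in TNKO tumours. All TNKO tumours were above all WT tumours. The difference of 1.71 millionths (SE 0.294, 6.26 residual SDs) had an adjusted p of 0.0985 by limma and did not pass. In size it was small, and the 95th percentile of all probe sets lay at 2.89 residual SDs. The dimmer probe set (1422983_at) overlapped, with a difference of -0.144 millionths (SE 1.26). Hybridisation control probe sets, which read no mouse RNA, were higher in the TNKO mean in 18 of 18, by 0.173 to 61.4 millionths. Their part in the Itga8, Itga7 and Itgb6 values was not tested. Simple epithelium markers, of the cells that carry Itgb6, were higher in 5 of 10, against 57.6% of all genes, and lower in 5. They differed by -474 millionths in Cdh1 to 2338 in Esrp1. Their mean level rounded to 7.52 in every tumour, which is too coarse to show differences of millionths. The part of these cells in the Itgb6 values was not tested.

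Itgb8 had the largest difference of the family in log2 units. It stood at -441, 101 and 340 millionths from the WT mean in WT tumours and at -1214, -2077 and -344 in TNKO tumours. TNKO tumours 1 and 2 were below all WT tumours, while TNKO tumour 3 lay just above WT tumour 1. The difference was -1212 millionths (SE 515, -1.80 residual SDs, adjusted p = 0.287 by limma), with a 95% interval from -2741 to 318 millionths. It was -1645 millionths without TNKO tumour 3, the tumour in the overlap, and -779 without TNKO tumour 2, the lowest. Under quantile normalization and with medians subtracted the Itgb8 difference was -2102 and -1975 millionths (adjusted p = 0.588 and 0.99 by limma). The median difference of all probe sets then moved to -538 and -764 millionths. No alternative brought the Itgb8 difference past the threshold.

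**Figure D3:**
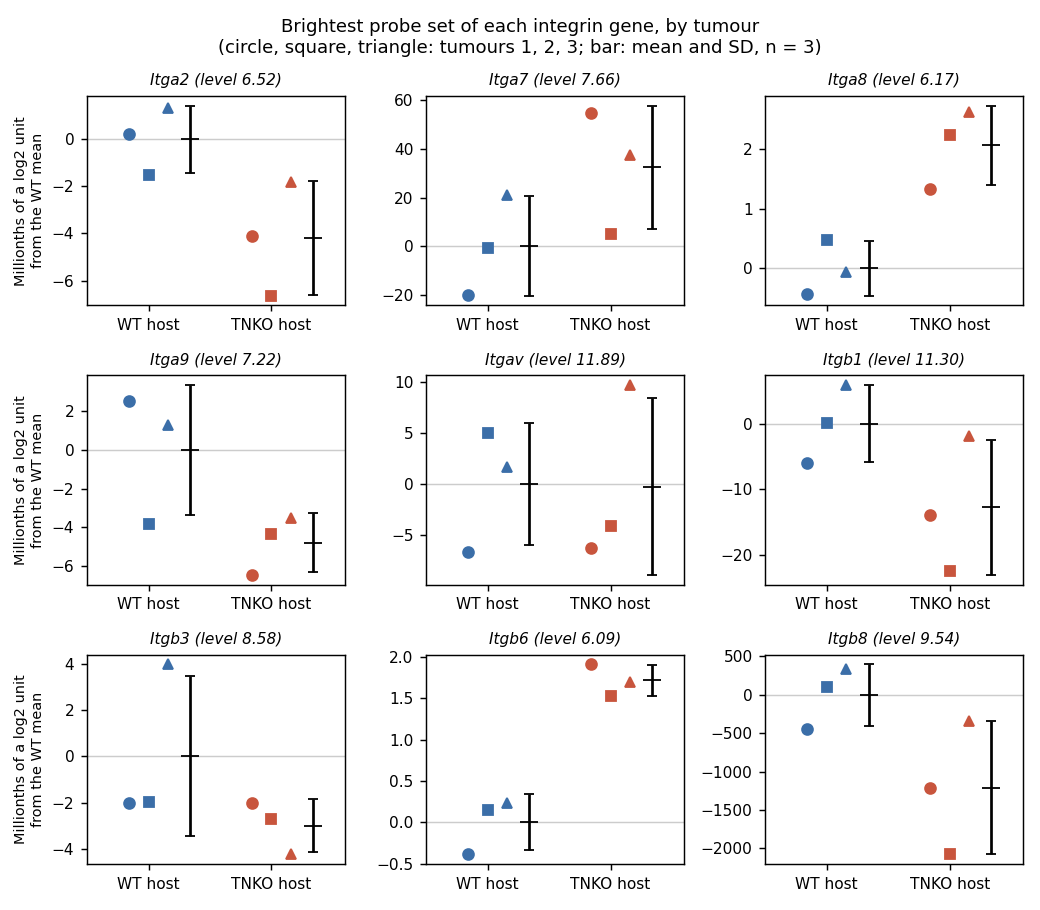
Each panel plots the brightest probe set of an integrin gene in the 6 tumours, as millionths of a log2 unit from the mean of the 3 WT tumours, with circles, squares and triangles for tumours 1, 2 and 3 and bars for mean and SD (n = 3), on a scale of its own. Groups are apart in Itga2, Itga8, Itgb3 and Itgb6 and overlap in the other 5 genes. That is 44.4%, against 26.1% of all genes by their brightest probe set. Over all 23 integrin probe sets the share was 30.4%, against 28% of all probe sets. The Itgb8 panel covers 2417 millionths.

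**Figure D4:**
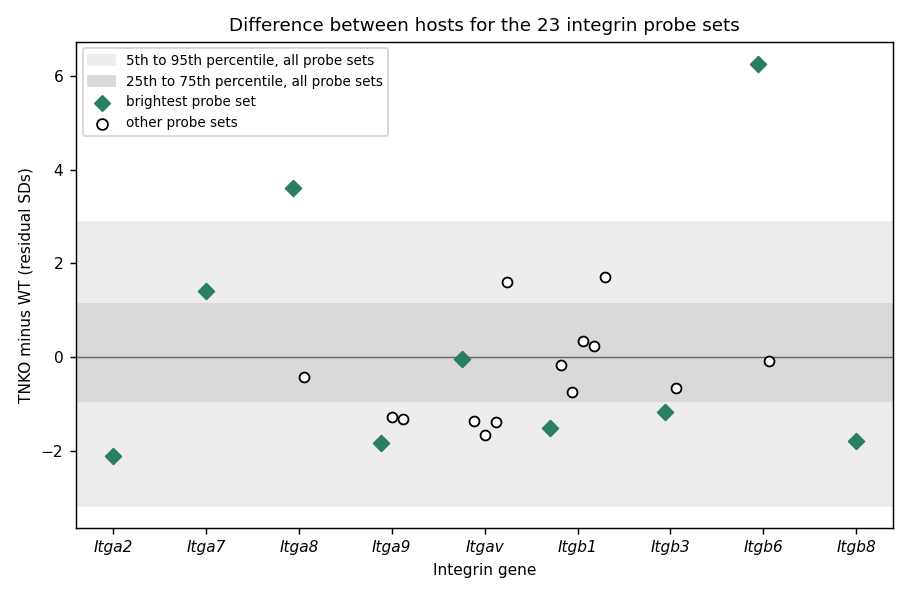
The difference TNKO minus WT, in residual SDs, of the 23 integrin probe sets by gene, diamonds for the brightest of each gene, over bands for the 5th to 95th and 25th to 75th percentiles of all tested probe sets. Itga8 (3.61) and Itgb6 (6.26) lie above the 95th percentile (2.89) with their brightest probe set only, and their other probe set lies near 0.

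Itgb8 and the brightest Itgb1 probe set put the 6 tumours in the same order, from WT tumour 3 through WT tumour 2, TNKO tumour 3, WT tumour 1 and TNKO tumour 1 down to TNKO tumour 2. In all 73 other genes (0.401%) shared this order with Itgb1. After scaling to the same mean and SD, the closest were Topors, Insig2 and Ccng2, with root mean square differences of 0.0891, 0.0965 and 0.0986 SDs. Itgb8 came in rank 5 at 0.126. Itgav shared its order with 30 other genes, of which Tnnt2 (0.0832 SDs), Ankrd44 (0.141) and Il1rap (0.176) were closest, and no other integrin of the group was among them. These likenesses rest on 6 arrays in 2 groups and describe the order of the tumours only.

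The promoter windows of Itgb1 and Itgb8 are shown because the brightest Itgb1 probe set and that of Itgb8 share an order of tumours. No other Itgb1 probe set put the tumours in that order, nor did the nearly as bright 1426918_at. Each covers 250 bases before to 50 after the gene's start, 5′ to 3′ on the gene's strand, from RefSeq on GRCm38.p6. Windows were found for 7 of the 9 genes. Capitals mark matches, on either strand, to a GC box (GGGCGG, in 35.7% of 32851 such windows), a CCAAT box (CCAAT, 37.4%), an AP-1 site (TGANTCA, 7.81%), a CRE (TGACGTCA, 1.79%) or a TATA box (TATAAA, 13.6%), none of which contains another. The Itgb1 window is chr8:128685404-128685703 on the plus strand and that of Itgb8 chr12:119238227-119238526 on the minus strand.
Itgb1: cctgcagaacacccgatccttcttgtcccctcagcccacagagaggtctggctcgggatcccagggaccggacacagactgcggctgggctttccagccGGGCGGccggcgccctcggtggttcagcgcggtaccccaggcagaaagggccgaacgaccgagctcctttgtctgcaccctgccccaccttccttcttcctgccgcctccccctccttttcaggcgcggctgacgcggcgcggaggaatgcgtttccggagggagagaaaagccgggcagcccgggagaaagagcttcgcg
Itgb8: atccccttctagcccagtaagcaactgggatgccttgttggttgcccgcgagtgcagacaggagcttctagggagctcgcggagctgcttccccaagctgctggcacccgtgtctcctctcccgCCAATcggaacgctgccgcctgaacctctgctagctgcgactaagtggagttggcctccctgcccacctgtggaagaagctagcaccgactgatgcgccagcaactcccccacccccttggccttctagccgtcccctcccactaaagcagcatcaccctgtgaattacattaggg
The Itgb1 window held 1 GC box, and its GC content was 67.3%. The Itgb8 window held 1 CCAAT box and had a GC content of 60.7%, against a median of 52.7% over all windows. The letters of the other motifs were in neither, and the 2 windows shared no motif of the 5 searched. A match is a description of letters, not of a bound site.

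Other integrin chains were read by 15 of 17 listed genes, and 0 passed. Of these 8 were higher and 7 lower in the TNKO mean, with a median of 0.0733 millionths. Itga4, a leukocyte chain, differed by 4.69 millionths (adjusted p = 0.242 by limma), Itga1, a collagen receptor chain, by 59.5 and the leukocyte beta chain gene Itgb2 by 218 millionths. At an unadjusted p under 0.05 there was 1 of the 15, against 18.4% of all genes.

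Around the receptors, none of the 97 measured genes of the partner and pathway lists passed, where 0.121% of all genes did by their brightest probe set. Of 27 other ligands of these integrins 16 were higher and 11 lower in the TNKO mean, with 1 higher and 4 lower at an unadjusted p under 0.05, against 9.99% and 8.43% of all genes. Ccn2, a matricellular ligand, differed by -183 millionths (SE 36.5, adjusted p = 0.112 by limma), Thbs1, thrombospondin, by -484 and the lymphatic growth factor gene Vegfc by -75.1. In each of these 3, named for the smallest unadjusted p of the list, all TNKO tumours lay below all WT tumours. Over the 27 ligands the groups did not overlap in 8, 3 higher and 5 lower in TNKO hosts. Of all genes 26.1% did not overlap, 15% higher and 11.1% lower.

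Genes of latent TGF-beta and its signalling were lower in the TNKO mean in 10 of 13, against 42.4% of all genes. Their median difference was -2.31 millionths (-0.53 residual SDs), against 0.2 millionths (0.28 residual SDs) over all genes. Tgfb2, a TGF-beta ligand, differed by -332 millionths (SE 85, adjusted p = 0.15 by limma), Smad2, a signal transducer, by -16.4 (SE 4.24, adjusted p = 0.151) and Ltbp2 by -5.98. The groups did not overlap in 4 of the 13, all with the TNKO tumours below. Of all genes 26.1% did not overlap in either direction, and 11.1% were lower. Both genes with an unadjusted p under 0.05 by limma, 2 of the 13, were lower. Of all genes 18.4% had such a p in either direction, and 8.43% were lower.

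Inside the cell, integrin activators and adaptors were higher in 11 of 24 and lower in 13. Tln1, talin, which switches integrins on, differed by -3.4 millionths (SE 1.04, adjusted p = 0.189 by limma), the adaptor gene Tns1 by 39.4 and Kank1 by 14.2. Adhesion kinases and GTPase signalling genes were higher in 9 of 18 and lower in 9. The Src-family kinase gene Fyn differed by -20.4 millionths (SE 3.75, adjusted p = 0.104 by limma), Dock1, an activator of Rac, by -7.4 and its partner Elmo1 by 3.94. At an unadjusted p under 0.05 there were 4 of the 24 adaptors and 2 of the 18 signalling genes, against 18.4% of all genes. The directions of these lists are those of the values as deposited.

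By tumour, TNKO tumour 2 was the lowest array in 10 of the 23 integrin probe sets (43.5%), against 14.8% of all probe sets. WT tumours 1 and 3 were each the highest in 6 of the 23 (26.1%), against 14.4% and 19.4% of all. Of the brightest probe sets alone, WT tumour 1 was the lowest in 4 of 9 and TNKO tumour 2 in 3. Probe sets of the same gene share their transcripts, so these counts are not over independent members.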

How the data were processed

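RNA of 6 mouse tumours, 3 per host genotype, was measured on 1-colour Affymetrix arrays, from 100 ng of total RNA per the labels' protocols. The deposited values are taken as log2 from their range, and were summarized per probe set and normalized by the authors before deposit. The submitters' processing notes name R 2.7.2. Neither the method nor the log base is given in the sources used here. Tests left out 64 control probe sets and covered 45037, of which 34945 had 1 gene symbol, 932 several and 9160 none in the platform annotation (2016). A gene's brightest probe set stood for it. TNKO minus WT was fitted over all probe sets with limma 3.58.1 in R 4.3.3 (lmFit, eBayes), two-sided, with Benjamini-Hochberg adjustment over all 45037 and a threshold of 0.05. Intervals are 95% from each probe set's own residual SD. The members and gene lists were chosen with earlier results of these data known. Every probe set of the members was named. Of each partner or pathway list, genes that passed, otherwise the 3 with the smallest unadjusted p, were named. For Itgav and Itgb1 the 3 genes most like them among those with the same order of arrays were named. Marker genes beside members were named after their values were seen. Of 106 partner and pathway genes 97 were matched.

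Other settings tried were array medians subtracted, quantile normalization, a trend, robust or no moderation, a replicate block, filters on level and span, leaving out each array, and the mean over a gene's probe sets. On simulated data for 45037 probe sets, the fit of TNKO minus WT recovered 3 of 50 changed by 5 residual SDs, 38 of 50 by 10 and 49 of 50 by 20, with 3 false calls. Only probe sets changed on purpose differed there, while 20.3% of the real ones had an unadjusted p under 0.05 by limma. Adjustment is stricter in such data, so these counts are not recovery rates for the deposited values. The labels give no batch. Same-numbered arrays did not deviate together (correlations of 0.0289, -0.0157 and 0.00531), so numbers were not taken as pairs. Between 21 and 43 values were identical in any 2 arrays, and no array was taken as a copy.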

Additional observations from a re-analysis of the deposited data

How the results depend on the processing

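No integrin probe set and none of the 97 partner and pathway genes passed the adjusted threshold as deposited or under any of the 14 alternatives run on them. The count of integrin probe sets at an unadjusted p under 0.05, 3 as reported, was 1 with quantile normalization (1.31% of all probe sets), 0 with array medians subtracted (0.193%), 0 of 13 among probe sets above the median level (24.1%) and 0 of 1 among those spanning at least 0.001 (19.6%). Leaving out 1 array gave 2 to 5 (15.1% to 18.7% of all). The count without overlap, 7 as reported, was 4 with quantile normalization (15.5% of all), 1 with medians subtracted (2.13%), and 1 and 0 under the 2 filters (31.9% and 34.6%). Leaving out 1 array gave 8 to 12 (36.2% to 40.9% of all). Both highest counts came without TNKO tumour 3.

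Over all probe sets the 79 calls became 0 with quantile normalization, 2 with no moderation, 285 among the 22518 above the median level and 0 of 790 spanning at least 0.001. Leaving out 1 array gave 0 to 73. With the replicate block 0 probe sets were called over the array, 7816 being at an unadjusted p under 0.05, and no integrin count changed. With quantile normalization 591 and with no moderation 8357 probe sets were at an unadjusted p under 0.05, and without WT tumour 1 or 3, where the count was 0, there were 7144 and 6807. Of 124 single values for the brightest probe sets, 114 kept their direction and side of the threshold and 10 reversed. Quantile normalization and subtraction of medians turned Itga7 to -767 and -731 millionths, Itga8 to -559 and -762 and Itgb6 to -480 and -762. The median difference of all probe sets was then -538 and -764 millionths. Subtraction of medians shifts every probe set of an array alike, while quantile normalization shifts probe sets unevenly. Itgav reversed to 2.23 and 0.583 millionths without WT tumours 2 and 3, and to 2.78 and 1.69 without TNKO tumours 1 and 2 (range with 1 array left out, -5.24 to 2.78). The adjusted p of Itgb6 ran from 0.0857 to 0.99 and that of Itgb8 from 0.193 to 0.99 over their alternatives. On simulated data with no other difference between hosts, 3 of 50 probe sets changed by 5 residual SDs were recovered, and smaller sizes were not run. The deposited values hold more differences, so this count is not their recovery rate.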
